A study of Mus musculus with 21 samples.

Results

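Keratin-associated proteins were followed through every gene whose name in the scanner files begins with Krtap, which gave 43 genes read by 47 probes, of 27373 gene names and 41174 probes on the array. They were divided by family number into 17 high sulfur, 12 ultra-high sulfur and 14 high glycine-tyrosine genes. The study measured RNA of skin, liver and epididymal fat from male C57Bl6/J mice without JNK1, the stress-activated kinase encoded by *Mapk8* (knockout, KO), and from wild-type mice (WT), on single-colour Agilent arrays. All mice, WT included, were 45 weeks old and had been fed high fat diet between weeks 5 and 44 of age. The files used here hold 4 KO and 3 WT arrays of skin, 3 and 3 of liver, and 4 and 4 of fat. The labels do not say which cells carry the deletion, which site the skin came from, or whether each array is a separate mouse, so p-values measure the spread between these samples only.

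Hair is built from long keratin filaments set in a matrix of keratin-associated proteins. The high sulfur and ultra-high sulfur proteins are rich in cysteine and are joined to the hair keratins by disulfide bonds, whereas the high glycine-tyrosine proteins are small and rich in those residues. Their genes are transcribed late in hair formation, in the differentiating cells of the growing hair shaft, and lie in tight clusters of related copies. The members on the array lay on 5 chromosomes of mouse build mm9: 21 genes between 88611474 and 89508568 on chromosome 16, 15 between 99411699 and 99854715 on chromosome 11, 4 between 149360656 and 149489787 on chromosome 7, 2 on chromosome 1 and 1 on chromosome 10. Whether a probe lies in a coding or an untranslated stretch was not analysed here.

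Some of the probes carry the codon repeats that name the classes, and these repeats bear on which copies a probe can tell apart. A repeat was counted at 5 or more cysteine codons, or 8 or more glycine and tyrosine codons, in an open frame. By that rule 10 probes of the members held a repeat and 37 did not. Most of the probes printed here and below are among those 10, so they do not stand for the whole set. In the 3 ultra-high sulfur probes, printed 5′ to 3′ as the files give them, capitals mark TGC or TGT, the cysteine codons, in the reading frame without a stop codon that holds most of them.
Krtap5-1, chr7:149482410-149482469: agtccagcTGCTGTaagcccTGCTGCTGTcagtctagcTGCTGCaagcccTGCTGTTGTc
Krtap5-4, chr7:149489728-149489787: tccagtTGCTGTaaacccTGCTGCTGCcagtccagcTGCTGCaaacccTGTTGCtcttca
Krtap4-6, chr11:99526996-99527055: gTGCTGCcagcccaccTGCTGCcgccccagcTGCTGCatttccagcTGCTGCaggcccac
Of the codons read, 10 of 19 were cysteine codons for *Krtap5-1*, 9 of 20 for *Krtap5-4* and 8 of 19 for *Krtap4-6*. The *Krtap5-1* and *Krtap5-4* probes matched at 49 of 58 overlapping bases without gaps. How far each of them reads its neighbour's RNA was not tested, so the members of a family are not independent measurements.

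In the next 5 probes capitals mark the glycine codons, which begin with GG, and the tyrosine codons TAC and TAT, in the frame chosen the same way.
Krtap6-1, chr16:89032108-89032179: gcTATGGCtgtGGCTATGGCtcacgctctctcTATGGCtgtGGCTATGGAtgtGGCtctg
Krtap21-1, chr16:89403912-89403971: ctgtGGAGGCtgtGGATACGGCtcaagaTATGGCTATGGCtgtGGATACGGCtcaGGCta
Krtap16-3, chr16:88962906-88962965: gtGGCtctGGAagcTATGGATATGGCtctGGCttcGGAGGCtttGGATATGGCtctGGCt
Krtap19-1, chr16:88869431-88869490: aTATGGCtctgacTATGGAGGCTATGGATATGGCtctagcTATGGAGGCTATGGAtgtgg
Krtap19-1, chr16:88869384-88869443: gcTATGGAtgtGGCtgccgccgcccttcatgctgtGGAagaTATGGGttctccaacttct
Glycine and tyrosine codons made up 11 of 19 codons for *Krtap6-1*, 13 of 19 for *Krtap21-1*, and 14 of 19 and 6 of 19 for the probes of *Krtap19-1*. *Krtap16-3* was placed among the high sulfur genes by its family number, yet its probe held 13 such codons of 19 and no cysteine codon. It matched the first *Krtap19-1* probe at 43 of 52 overlapping bases. Counting it as high glycine-tyrosine, a choice made after its sequence was seen, left the direction of both class medians as it was.

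Of 41174 probes, Feature Extraction set between 38.9% and 52.8% well above background on a skin array, 45.8% to 48.2% on a liver array and 46.7% to 57.2% on 7 fat arrays. Skin KO 1 (38.9%) and skin WT 1 (39.5%) had the lowest share among skin arrays and skin KO 3 (52.8%) the highest. The scanner file of fat WT 2 stood apart: its values correlated across probes with skin arrays at r = 0.860 to 0.912 and with fat arrays at 0.719 to 0.760, so it was left out of the reported fits, and its column of the deposited value table was used. *Krt10*, a keratin of the upper epidermis, lay between 8.70 and 9.28 on the skin arrays, as log2 intensity relative to each array's 75th percentile, the scale of all levels below. *Mapk8* was at -4.76 ± 0.53 (SD, n = 4) in KO skin, with no array well above background, and at -2.91 ± 1.08 (SD, n = 3) in WT skin, with 2 arrays well above it. In liver the *Mapk8* probe was well above background on 4 of 6 arrays and in fat on 6 of 7, KO and WT together. Each of these tissues had 3 WT arrays in the fits, so KO arrays were among them. Whether the probe lies in the deleted part is not given in the sources used here.

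Of the 43 members, 39 were well above background on at least 3 skin arrays and were tested. All 39 would have passed that filter through the 4 KO arrays alone, and 23 through the 3 WT arrays alone, so counts over the tested members are a description. *Krtap13* and *Krtap20-2* were not well above background on any skin array. *Krtap19-5* and *Krtap28-10* were so on skin KO 3 alone. Without the filter, 42 of the 43 members had a higher mean in KO than in WT, the exception being *Krtap13*.

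Every tested member had more signal in KO skin than in WT skin. The difference lay between 1.89 and 6.30 on the log2 scale (3.70-fold to 78.8-fold), with a median of 4.67 (25.5-fold), against a median of -0.10 over all 13497 genes tested. Differences above 0 made up 39 of 39 members and 39.4% of all genes. On 38 of the 39 members, all 4 KO arrays lay above all 3 WT arrays, which held for 3.35% of all genes. Of the 23 members well above background on all 7 arrays, 23 had no overlap between the groups, where 2.91% of all genes with that detection had none in this direction. In whole skin, more cells of a type and more RNA per cell cannot be told apart.

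None of these differences passed the test across all genes. In limma with Benjamini-Hochberg adjustment, 0 of 39 members were called (adjusted p from 0.144 to 0.555) and 0.0148% of all genes were, 2 of 13497. All 39 had an unadjusted p under 0.05, which 2.85% of all genes reached in the same direction. When the spread was estimated in 1 fit over all 3 tissues, 35 of 39 members were called in limma, against 0.963% of all genes. That fit takes part of its spread from liver and fat, where most members were not well above background. Without skin WT 2, 23 of 39 were called against 0.325% of all genes, with a lowest adjusted p of 0.0412 in limma. Skin WT 2 was the highest WT array for 37 members, so leaving it out widens their differences. With any other skin array left out, 0 were called, with a lowest adjusted p in limma from 0.0679 (without KO 4) to 0.639 (without WT 1).

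**Figure D1:**
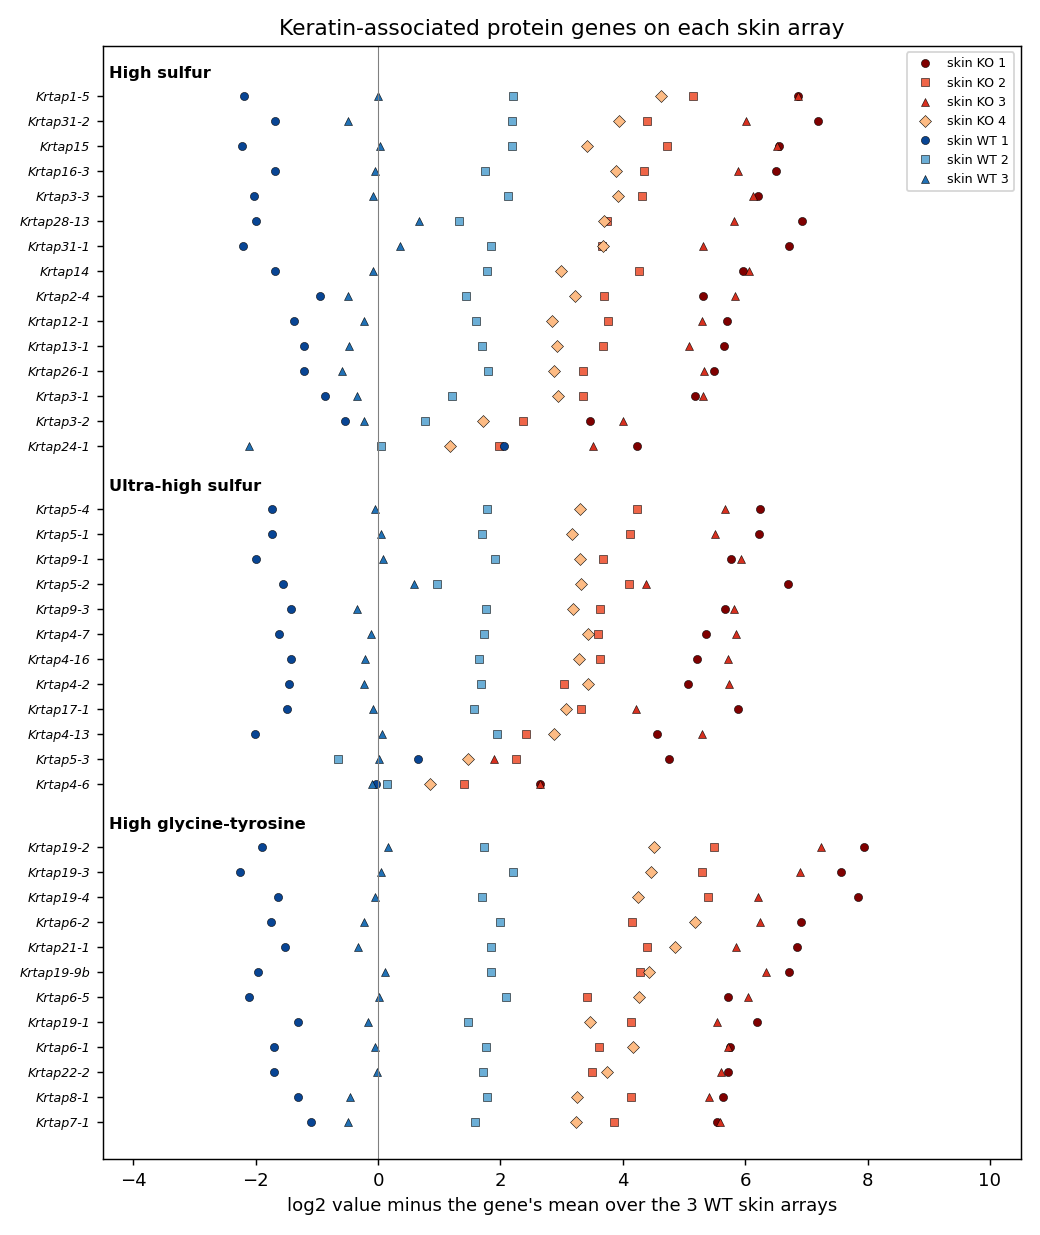
Each row is 1 of the 39 tested genes, grouped by class, and each point is 1 skin array, plotted as its log2 value minus the mean of the 3 WT arrays for that gene. The KO points lie to the right of the WT points in every row except Krtap24-1, and the spread within each genotype runs in the same order of arrays in most rows.

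The high glycine-tyrosine genes, which lie on chromosome 16, had a median difference of 5.15 (35.5-fold, 12 tested of 14) and a range of 4.55 to 6.30. *Krtap21-1* had the smallest p of all members. Its values were 6.84, 4.39, 5.85 and 4.84 on KO 1 to 4, and -1.53, 1.84 and -0.33 on WT 1 to 3. The lowest KO array stood 2.55 above the highest WT array, and the difference was 5.49 (44.8-fold, SE 0.823, unadjusted p = 1.25e-04, adjusted p = 0.144 in limma). Many members share that adjusted p, since the adjustment gives tied values to neighbouring ranks.

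The *Krtap19* family held the 3 largest differences of the class. *Krtap19-2*, named Krtap16-1 in the files, was at 6.33, 3.89, 5.64 and 2.91 in KO and at -3.50, 0.13 and -1.45 in WT, a difference of 6.30 (78.8-fold). *Krtap19-3* followed at 6.06 and *Krtap19-4* at 5.92 (60.6-fold). On WT 1 these genes were not well above background, so their WT means rest partly on dim spots and on WT 2 and WT 3. *Krtap19-1* was measured by both probes printed above, and the class uses the one with the higher mean over the 20 arrays. That probe read 8.90, 6.84, 8.25 and 6.18 in KO and 1.41, 4.19 and 2.54 in WT, a difference of 4.83 (28.4-fold), whereas the other gave 5.71.

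*Krtap6-1* was at 9.24, 7.11, 9.22 and 7.66 in KO and at 1.79, 5.25 and 3.44 in WT. Its difference was 4.81 (28.1-fold, SE 0.83). The smallest differences of the class were those of *Krtap7-1*, at 4.55 (23.4-fold, SE 0.771), and *Krtap8-1*, at 4.61 (24.3-fold, SE 0.802). The second probe of *Krtap8-1* gave 4.42. For both genes every KO array lay above every WT array.

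The high sulfur genes had a median difference of 4.82 (28.3-fold, 15 tested of 17) and a range of 2.72 to 5.87. *Krtap1-5*, in the chromosome 11 cluster (probe at 99441503 to 99441562), had the smallest p of the class, at 2.77e-04 before adjustment. It was at 5.68, 3.96, 5.67 and 3.44 in KO and at -3.38, 1.01 and -1.19 in WT, a difference of 5.87 (58.6-fold, SE 0.986, adjusted p = 0.144 in limma). *Krtap16-3* was at 9.37, 7.21, 8.74 and 6.75 in KO and at 1.17, 4.61 and 2.81 in WT, a difference of 5.15 (35.6-fold). *Krtap2-4* (4.52) and *Krtap13-1* (4.33, 20.1-fold) lay nearer the middle of the class.

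*Krtap3-1* had 3 probes, which differed in size but not in direction. The probe used gave 4.2 (18.3-fold, SE 0.707), and the others 4.92 and 5.59, the last without its KO 4 spot, which Feature Extraction flagged as an outlier. *Krtap3-2*, a neighbour on chromosome 11, had 2.89 (7.42-fold, SE 0.562), with values of 3.61, 2.52, 4.15 and 1.86 in KO and -0.39, 0.92 and -0.09 in WT.

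*Krtap24-1*, at the start of the chromosome 16 cluster (probe at 88611474 to 88611533), was the only tested member whose groups overlapped. It read 1.14, -1.10, 0.43 and -1.91 in KO and -1.03, -3.03 and -5.19 in WT. WT 1, the lowest WT array for 36 of 39 members, was its highest WT array and the only one well above background. Its difference of 2.72 (SE 1.02) had the largest p of all members, with an unadjusted p of 0.0266 and an adjusted p of 0.555 in limma. Without WT 1 its groups no longer overlapped.

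The ultra-high sulfur genes had a median difference of 4.51 (22.8-fold, 12 tested of 12) and a range of 1.89 to 4.86. Apart from *Krtap4-6*, *Krtap5-3* and *Krtap4-13* (3.79), the class lay between 4.12 and 4.86. *Krtap4-16* was at 5.59, 4.0, 6.10 and 3.66 in KO and at -1.05, 2.02 and 0.16 in WT, a difference of 4.46 (SE 0.808, adjusted p = 0.144 in limma). *Krtap4-7* gave 4.56 (23.6-fold). *Krtap9-1* read 6.30, 4.21, 6.47 and 3.83 in KO and -1.46, 2.45 and 0.61 in WT, a difference of 4.67 (25.5-fold, SE 0.974).

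On chromosome 7, *Krtap5-1* (4.75) and *Krtap5-4* (4.86), whose probes are printed above, gave nearly the same values array by array. *Krtap5-1* was at 8.65, 6.53, 7.92 and 5.59 in KO and at 0.68, 4.11 and 2.46 in WT. *Krtap5-2* was at 3.60, 1.0, 1.27 and 0.21 in KO and at -4.66, -2.14 and -2.52 in WT, a difference of 4.62 (24.7-fold). KO 1 was the highest KO array for this gene. *Krtap5-3* was well above background on all 4 KO arrays (1.01, -1.50, -1.86 and -2.28) and on no WT array (-3.10, -4.41 and -3.74), and was at least 3.48-fold higher in KO on the scanner values as scaled here, a bound set by the background level of the WT arrays (adjusted p = 0.516 in limma for the measured difference of 2.60). That bound holds for this processing only, since the measured difference was 1.03 after normexp background correction and 1.74 in the deposited value table.

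*Krtap4-6*, whose probe is the cysteine codon repeat with 70% G and C printed above, had the smallest difference of all tested members. It was at 8.33, 7.09, 8.34 and 6.54 in KO and at 5.65, 5.83 and 5.59 in WT, a difference of 1.89 (3.70-fold, SE 0.447, adjusted p = 0.284 in limma). Its WT arrays had an SD of 0.13, where those of the other tested members ran from 0.66 to 2.24. It was also well above background on every liver and fat array used, at 3.60 to 3.96 in liver and 3.14 to 3.93 in fat.

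Array by array, the members ran nearly in parallel. The median over the 39 members, each relative to its own WT mean, was 5.77 on KO 1, 3.75 on KO 2, 5.73 on KO 3 and 3.31 on KO 4, and -1.64 on WT 1, 1.74 on WT 2 and -0.09 on WT 3. KO 1 was the highest of the 7 arrays for 26 members and KO 3 for 13. KO 4 was the lowest KO array for 30 members, WT 2 the highest WT array for 37 and WT 1 the lowest for 36. The groups thus came nearest between KO 4 and WT 2, where the median distance was 1.74 (3.35-fold) and the difference was above 0 for 39 of 39 members, with a range of 0.71 to 3.19.

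The spread within a genotype was large. WT 2 exceeded WT 1 by a median of 3.34 (10.1-fold), and KO 1 exceeded KO 2 by 2.12 (4.35-fold), where the medians of all genes tested differed by -0.21 and 0.00. Between KO 1, with the highest median for the members, and WT 1, with the lowest, the median distance was 7.49 (180-fold). KO 1 and WT 1 both had few probes well above background and lay at opposite ends for the members, and their part in the result was not tested further than by leaving them out. Without both, the median difference was 3.51 and 39 of 39 members had no overlap. KO 1 and KO 4 shared a slide, as did KO 2 and KO 3, so each of these slides held 1 high and 1 low array. The skin arrays of a slide, and those of a scan date, were of 1 genotype in every case. Genotype therefore cannot be told apart from slide or scan date in skin. With slide as a random block in limma 0 of 39 members were called (lowest adjusted p = 0.197), and that fit does not separate them either.

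**Figure D2:**
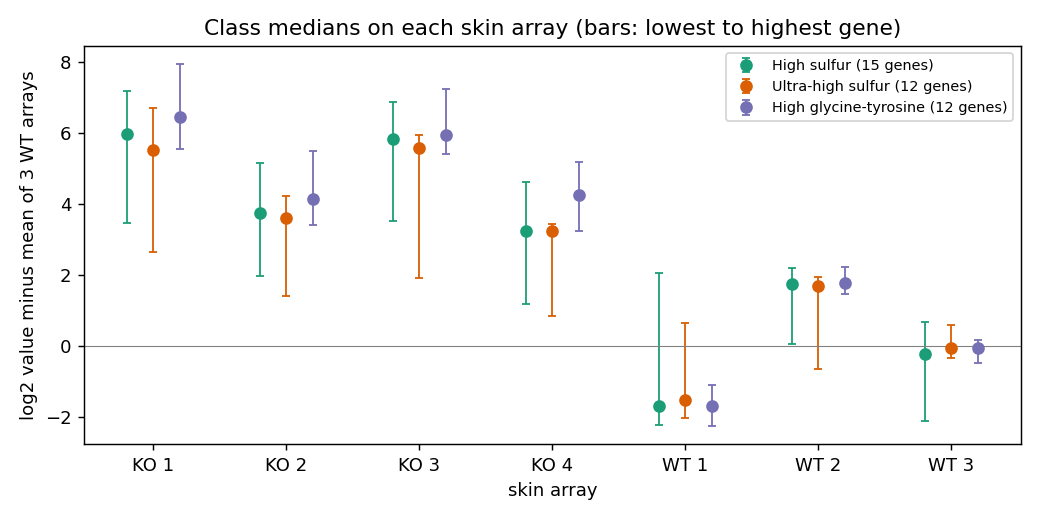
Points are the median over the tested genes of a class on each skin array, as log2 value minus the mean of the 3 WT arrays, and bars run from the lowest to the highest gene. In each class KO 1 and KO 3 lie highest, with medians from 5.52 to 6.45, and WT 1 lowest, with medians from -1.70 to -1.52.

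The classes kept nearly the same order of arrays, with small departures. The high glycine-tyrosine median was 6.45 on KO 1, 4.14 on KO 2, 5.95 on KO 3 and 4.25 on KO 4. The high sulfur median was 5.96, 3.75, 5.82 and 3.23, and the ultra-high sulfur median 5.52, 3.61, 5.58 and 3.23. KO 4 lay below KO 2 for 14 of 15 high sulfur genes (exception *Krtap31-1*, by 0.01) and for 10 of 12 ultra-high sulfur genes, but for 6 of 12 high glycine-tyrosine genes. The members above KO 2 there included *Krtap6-2*, by 1.02. KO 3 lay below KO 1 for 10 of 12 high glycine-tyrosine genes. In the ultra-high sulfur class it lay below for 5 genes, *Krtap17-1* and the 4 *Krtap5* genes, and above for 7, the *Krtap4* and *Krtap9* genes. The largest such gap was -2.87, for *Krtap5-3*. These are single arrays, so the departures have no test.

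Other genes of the hair follicle were read from lists of known genes. Hair shaft keratins, the filaments that the keratin-associated proteins bind, were higher in KO in 12 of 12 tested, with a median difference of 4.08. *Krt85*, a keratin of the hair matrix and cortex, was at 6.25, 4.80, 5.95 and 3.67 in KO and at 0.50, 2.27 and 0.39 in WT. Keratins and trichohyalin of the inner root sheath, the layer that moulds the hair, were higher in 6 of 6 (median 4.05), and enzymes and other proteins of hair shaft assembly, among them the arginine deiminase gene *Padi3* (3.99), in 6 of 6 (median 3.70). Every tested gene of these 3 lists had an unadjusted p under 0.05, and no gene of these or the following lists was called in limma after adjustment. On each of the 3 lists the medians also put KO 1 and KO 3 highest and WT 2 above the other WT arrays.

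Regulators of the hair matrix, the dividing cells below the shaft, differed less. Of 12 tested, 10 had a difference above 0, against 39.4% of all genes, and the median was 0.44. In limma 0 were called, where 0.0148% of all genes were. An unadjusted p under 0.05 was reached by 3, all higher in KO, and by 2.85% of all genes in that direction. The largest differences of the list were those of *Lef1*, a transcription factor of the Wnt pathway, and *Msx2*, a homeobox factor. *Lef1* had 2.57 (SE 0.632, adjusted p = 0.322 in limma) and *Msx2* 2.05 (SE 0.487, adjusted p = 0.286). *Msx1* had 0.27, and the genes below 0 were *Gata3* (-0.51) and *Wnt10a* (-0.57). *Foxn1*, a regulator of hair keratin genes, had 0.74 (SE 0.464), and *Hoxc13*, *Shh* and *Wnt10b* were not tested. Cell cycle genes had a difference above 0 in 20 of 21 (median 0.44), against 39.4% of all genes. Relative to the WT mean, the list median was 1.35, 0.11, 0.45 and -0.30 on KO 1 to 4, and 0.28, -0.22 and -0.06 on WT 1 to 3. For 1 of 21 all KO arrays lay above all WT arrays, as for 3.35% of all genes. An unadjusted p under 0.05 in limma, higher in KO, was reached by 2 of 21, and by 2.85% of all genes. Genes of the resting follicle and its stem cells were divided, 4 of 9 above 0 (median -0.20), with *Krt15* at -0.47 and *Lgr5* at 0.83.

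Melanocyte genes were higher in KO as well: 8 of 8 tested had a difference above 0 (median 2.35), and for 6 of 8 all KO arrays lay above all WT arrays, as for 3.35% of all genes. *Pmel*, a pigment granule protein, was at 3.61, 2.32, 2.92 and 0.54 in KO and at -1.12, -0.34 and -0.54 in WT (difference 3.02, adjusted p = 0.185 in limma). The WT medians of this list, -1.80 to -1.55, did not show WT 2 apart as the members did. *Tyr*, *Oca2* and *Gpr143* were not well above background on 3 arrays.

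Markers of other cells of the skin sample differed less, and their part in the result was not tested. Epidermal genes had list medians of 7.50 to 9.25 on KO and 7.33 to 8.60 on WT arrays, with 4 of 7 above 0. Sebaceous genes were above 0 in 3 of 5, with list medians of 1.45 to 3.48 on KO and 1.64 to 2.22 on WT arrays. Skeletal muscle genes had list medians of 7.03 to 8.48 on KO and 8.41 to 8.76 on WT arrays, and 8 of 8 were below 0 (median -0.69). Adipocyte genes were below 0 in 6 of 7, with list medians of 4.51 to 5.64 and 5.71 to 6.27. Endothelial genes were below 0 in 7 of 8, with list medians of -0.23 to 1.02 and 0.85 to 1.33. Hepatocyte genes were above 0 in 3 of 4, with list medians of 1.56 to 3.20 and 2.01 to 2.80. Of all genes tested, 39.4% were above 0. An unadjusted p under 0.05 in limma was reached by 7.88% of all genes in either direction, and by 2.85% higher in KO. Lower in KO, it was reached by 4 of 8 endothelial, 2 of 7 adipocyte and 1 of 8 muscle genes. No epidermal, sebaceous or hepatocyte gene reached it in either direction. On KO 1 and KO 3, the arrays with most keratin-associated protein signal, the muscle medians were 1.65 and 0.78 below the WT mean.

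**Figure D3:**
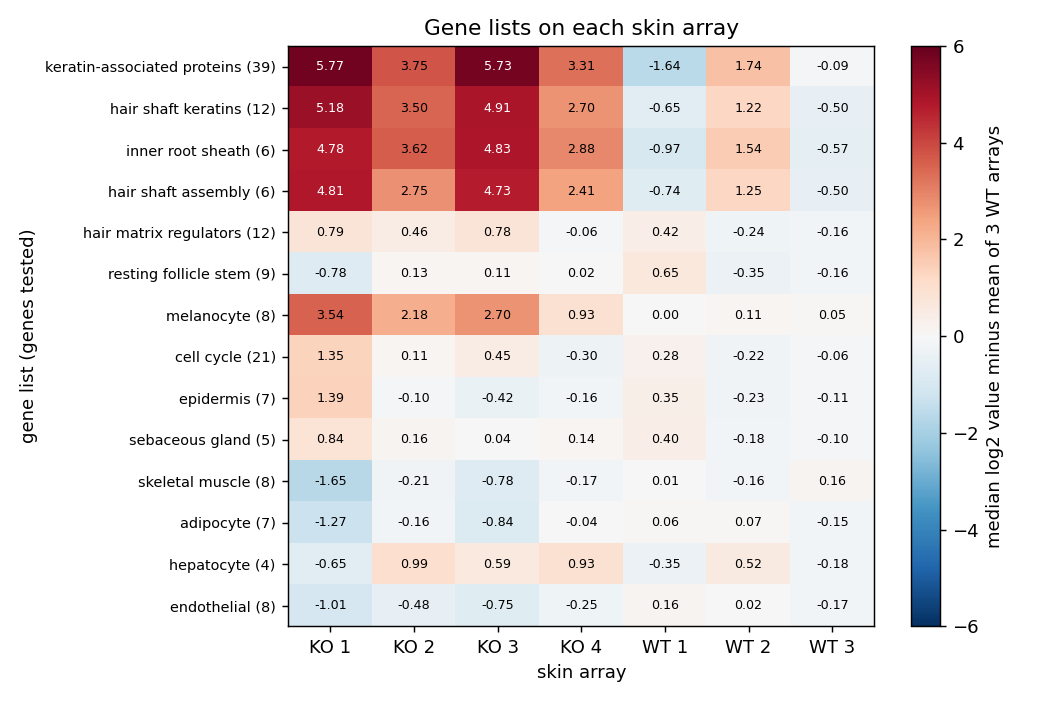
Rows are the tested keratin-associated protein genes and the gene lists, with the number of genes in brackets, columns are the 7 skin arrays, and each cell gives the median log2 value minus the mean of the 3 WT arrays. The first 4 rows share high values on KO 1 and KO 3 and a positive value on WT 2. The melanocyte row is at 3.54, 2.18, 2.70 and 0.93 on KO 1 to 4 and at 0.00 to 0.11 on WT arrays. The remaining rows lie between -1.65 and 1.39.

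The sequences before the annotated starts were compared because the members ran in parallel across the arrays. RefSeq promoters of build GRCm38.p6 were found for 39 of the 43 members. TATAAA, the letters of a TATA box, was present on either strand within the 100 bases before the start in 30 of 39 members (76.9%) and in 5.56% of all 32851 promoters. It was found in 12 of 15 high sulfur, 9 of 11 ultra-high sulfur and 9 of 13 high glycine-tyrosine promoters. CTTTGA, letters of a LEF1 core site, was present in 1 of 39 (2.56%), against 4.97% of all promoters. Within 250 bases it was present in 9 of 39 (23.1%), against 13.8% of all promoters, while TATAAA stood at 30 of 39 there, against 12.4%. The member with the smallest p of each class is shown, with TATAAA on either strand in capitals, all 3 on the minus strand.
Krtap1-5, chr11:99581017-99581116: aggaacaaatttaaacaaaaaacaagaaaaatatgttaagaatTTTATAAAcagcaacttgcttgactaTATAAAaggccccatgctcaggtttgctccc
Krtap4-16, chr11:99851606-99851705: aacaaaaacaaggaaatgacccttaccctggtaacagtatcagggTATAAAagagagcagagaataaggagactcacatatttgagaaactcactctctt
Krtap21-1, chr16:89403775-89403874: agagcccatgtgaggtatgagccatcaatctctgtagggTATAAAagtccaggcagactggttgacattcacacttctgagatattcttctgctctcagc
The match nearest the start began 31, 55 and 61 bases before it. *Krtap1-5* held a further match farther out, where the letters of both strands overlap. A match describes the sequence and shows no bound factor.

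In liver and fat the members were near background. Between 4 and 6 of the 47 probes were well above background on a liver array and between 3 and 7 on a fat array. Of the 43 members, 36 were so on no liver array and 35 on none of the 7 fat arrays. In liver 4 members were tested, with KO minus WT differences from -0.18 to 0.19, and 0 were called in limma, where 0.0226% of all genes were. In fat 7 were tested, with differences from -0.45 to 0.28, and 0 were called, where 0.0131% of all genes were. Of the tested members, 0 had an unadjusted p under 0.05 in either tissue, which 6.06% of all genes reached in liver and 7.93% in fat. *Krt10* was itself well above background on 6 of 6 liver arrays (0.09 to 0.42) and 7 of 7 fat arrays (-0.49 to 0.00).

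The members read in liver and fat were few and recurring. *Krtap4-6* and *Krtap19-1* were well above background on all 13 of these arrays, and *Krtap19-1* lay between -1.21 and -0.39 in liver. *Krtap3-1* was so on 12, *Krtap5-4* on 9, *Krtap9-1* on 7 and *Krtap31-1* on 4. For *Krtap19-1* and *Krtap3-1* this held for 1 probe each, and the other probes of the same genes were well above background on none of the 13 arrays. By codons, 10 of the 47 probes held at least 5 cysteine codons or 8 glycine and tyrosine codons in an open frame. Of those, 4 were read on at least 1 liver or fat array, against 6 of the other 37. The *Krtap5-1* probe was read on none and the *Krtap5-4* probe, alike at 49 of 58 bases, on 9.

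WT skin lay above WT liver for 36 of 39 members and above WT fat for 37 of 39 in limma (adjusted p under 0.05), where 28.6% and 25.6% of all genes were called in that direction. The KO minus WT difference of skin was called larger than that of liver for 10 of 39 members, where 0.155% of all genes were called. Those were 6 high glycine-tyrosine genes (*Krtap19-1*, *Krtap19-2*, *Krtap19-3*, *Krtap19-4*, *Krtap21-1* and *Krtap6-2*), 3 high sulfur genes (*Krtap1-5*, *Krtap2-4* and *Krtap3-1*) and *Krtap9-1*. Over all 39, the skin difference minus the liver difference ran from 1.70 to 6.60, with a median of 4.77. Adjusted p in limma ran from 0.0353 to 0.765. Against fat, 23 of 39 were called (0.410% of all genes), 11 of 12 high glycine-tyrosine, 8 of 15 high sulfur and 4 of 12 ultra-high sulfur genes, with a median of 4.74. These contrasts share the skin arrays and a spread estimated over all tissues, and liver values are mostly below background. A gene entered a contrast if it passed the detection filter in skin or in the other tissue. All 39 members passed in skin, but only 4 in liver and 7 in fat. Most thus entered through skin alone, where they were high, so all these counts are a description.

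The counts depended on single skin arrays. Against liver they were 0 without KO 1, KO 3, WT 1 or WT 3, 10 without KO 2, 29 without KO 4 and 33 without WT 2. Against fat they were 5 without KO 1 or KO 3, 0 without WT 1 or WT 3, 22 without KO 2, 32 without KO 4 and 33 without WT 2.

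In the deposited value table, whose log2 values come with an unstated normalization and centring, levels were summarized over 29 members in all 3 tissues. These were chosen as tested in skin and read on no liver or fat array, so their low liver and fat levels follow from the choice. Among the members left out, *Krtap4-6* lay between 11.81 and 12.48 and *Krtap19-1* between 6.38 and 7.21 in the fat columns other than WT 2. The median of the 29 was 14.31, 12.04, 14.02 and 11.71 on skin KO 1 to 4 and 6.96, 9.87 and 7.93 on skin WT 1 to 3. In liver it was 4.78 to 5.09 in KO and 4.92 to 5.18 in WT. In fat it was 3.58 to 4.15 in KO and 3.59 to 4.26 in WT, with fat WT 2 at 4.2. For fat WT 2 the table put 27 of 43 members inside the range of the other 7 fat columns, 15 above it and 1 below it, by at most 1.13 above.

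**Figure D4:**
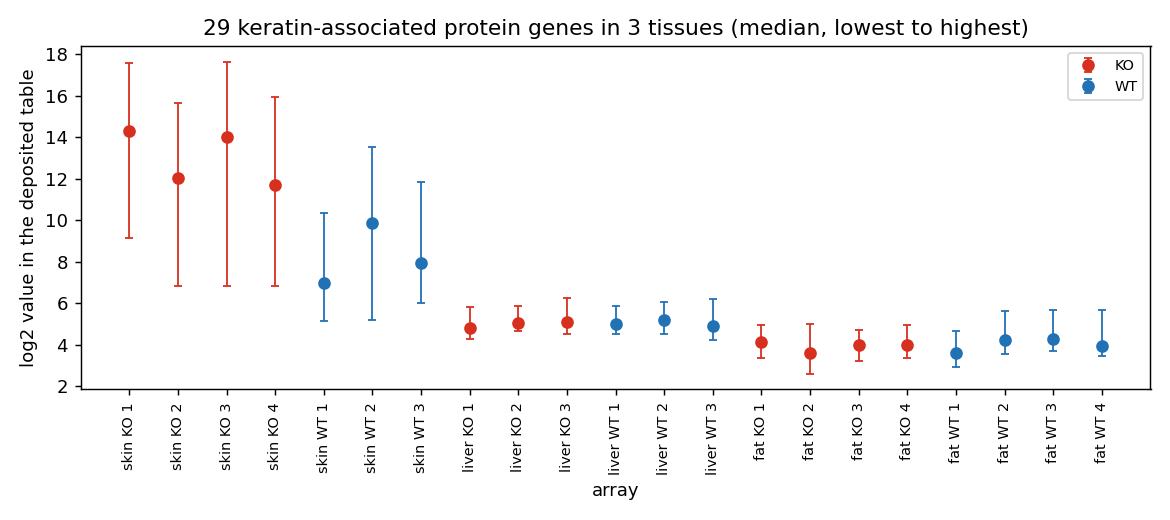
Points are medians over 29 members in the deposited value table (log2) on each of 21 arrays, and bars run from the lowest to the highest member. The 29 were chosen as read on no liver or fat array. Skin KO arrays lie at 11.71 to 14.31, skin WT arrays at 6.96 to 9.87, and all liver and fat arrays at 5.18 or below.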

How the data were processed

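The 21 scanner files hold spot intensity in Cy3, which Agilent Feature Extraction 10.7.3.1 produced, background-subtracted and not scaled between arrays, per the file headers. The value table that the authors deposited is in log2 units, and the submitters' processing notes name limma. Values were read in R 4.3.3. Spots flagged as outliers were left out, log2 was taken and each array's 75th percentile subtracted. The probe with the highest mean over the 20 arrays of all tissues used stood for a gene, and a gene was tested in a tissue where 3 or more of its arrays were well above background. KO was compared with WT per tissue with limma 3.58.1 (two-sided, Benjamini-Hochberg over all genes, adjusted p under 0.05), and tissue contrasts came from 1 fit of group means over 20 arrays, since the fat WT 2 scanner file was left out, except in 1 alternative. The script was tested on simulated data.

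Accessions of 41 of 43 members matched RefSeq, which gave current names, and the family number gave the class. The members, lists, rules and alternatives were chosen with earlier results of these data known. Genes were named by class for the highest signal, the smallest p and the smallest difference, with those read in liver or fat and members of each list. Other members were named for a stated exception or an extreme after their values were seen. Replicate numbers were not used to pair the skin arrays in the reported fits. Same-numbered KO and WT skin arrays deviated from their group means at r = -0.0669, -0.114 and -0.0432. With so few arrays in a group, these values cannot show whether the arrays were paired.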

Additional observations from a re-analysis of the deposited data

Results flagged for a closer look

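The KO minus WT difference in skin was called larger than that in liver for 10 members and larger than that in fat for 23. This was a test of the difference itself in limma (lowest adjusted p 0.0353 and 0.0210). Over the alternatives those lowest values ran from 0.00215 up against liver, with none called in 6 settings, and from 0.00215 to 0.503 against fat. Most members entered these contrasts through their detection in skin alone, so the counts are a description.

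The scanner file of fat WT 2, which was used in 1 alternative only, had 39 members well above background, whereas the other 7 fat arrays had 3 to 7. For 35 of the 39 members tested in skin, its signal lay above all 7 skin arrays. Over all probes it correlated with the fat WT 2 values of the authors at r = 0.779, where no other array fell under 0.972. The cause was not tested.

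Dixon's criterion for 4 samples was not passed by any array of the skin KO group in 26 sets of values, the named members and the class medians.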

How the results depend on the processing

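In skin, the 3 class medians kept their direction under every alternative run and moved by less than the spread between arrays. All 23 named members kept a difference above 0, and 20 of them passed the threshold in 1 fit over all tissues and 15 without WT 2. With each skin array left out in turn, the median ranged from 3.97 to 5.71 for high sulfur, 3.71 to 5.22 for ultra-high sulfur and 4.32 to 6.13 for high glycine-tyrosine genes. The number of members called in skin was 0 to 23 with an array left out, 35 with 1 fit over all tissues, and 0 under the other alternatives. Members without overlap numbered 38 to 39, and 23 with detection required on every skin array, where 23 members were tested. With an array left out, members called for skin minus liver ranged from 0 to 33 and for skin minus fat from 0 to 33. Without the filter on dim probes they were 0 and 12, with the fat WT 2 scanner file included 0 and 0, and with the authors' deposited values there were 28 against liver. In liver and fat 0 members were called under every alternative run. A replicate block, in which KO 4 has no partner, called 0 members in skin (lowest adjusted p 0.356 in limma), 0 in liver and 0 in fat.

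The class from protein composition was not run, and no liver slide held both genotypes. In fat, KO 2 and WT 4 shared a slide, and the 7 tested members differed there by -0.49 to 0.13. Dim WT spots limit the size of the larger fold changes, since a value near background has little precision, and 7 skin arrays limit every p.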
